A study of Homo sapiens with 60 samples.

Results

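The genes described here code for the subunits of the proteasome. They are the protein-coding genes whose symbol is PSMA, PSMB, PSMC or PSMD followed only by digits. The rule used names and no measured value, and it found 39 of the 60675 genes in the count table. By role they were 7 alpha ring genes, 4 non-catalytic and 3 catalytic beta genes, 3 immunoproteasome genes, 6 base ATPase genes, 3 other base genes, 8 lid genes and 3 assembly chaperones, with PSMA8 and PSMB11, which are known from testis and thymus. Of these, 37 passed the filter on low counts in edgeR. PSMA8 had no count in any library and PSMB11 had 6 counts over all 60 libraries, and neither was tested.

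The proteasome is the protease that degrades proteins tagged with ubiquitin. Its core is a barrel of alpha rings (PSMA), which gate the entry, and beta rings (PSMB), of which PSMB5, PSMB6 and PSMB7 carry the active sites. A cap binds the tagged protein, unfolds it with a ring of ATPases (PSMC) and removes the ubiquitin through its lid (PSMD), while PSMB8, PSMB9 and PSMB10 replace the active subunits in the immunoproteasome, which shapes peptides for antigen presentation. When proteasome capacity is short, the transcription factor NFE2L1 is known to raise the subunit genes together.

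RNA was sequenced from SW1783, an established human astrocytoma line, after 24 h with vehicle or with an extract from Korean herbal medicine. Single herbs were Citri Unshius Pericarpium (mandarin peel), Cimicifugae Rhizoma, Bupleuri Radix and Aconiti Lateralis Radix Preparata (processed aconite root), and the mixtures were Yijung-tang, Banhasasim-tang and Bojungikgi-tang. The vehicle group (0.1% DMSO per its labels, 2% in the design text) had 3 libraries. The high, medium and low doses were 500, 100 and 20 µg/mL, with 3 libraries per dose for 6 extracts and 1 per dose for Bojungikgi-tang, which entered no test. The labels state no DMSO content for the extract groups and do not say whether replicates came from separate cultures, so p-values measure the spread between these libraries, which may be technical.

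Libraries held 18.9 to 36.4 M counts, and the 39 genes took 0.444% to 0.567% of them. Sample codes place the vehicle in a set of its own and the extracts in 4 other sets, so in any comparison with the vehicle the extract, its solvent and the set cannot be told apart, while the doses of an extract share a set. Replicate 3 of Citri Unshius Pericarpium at the low dose and replicate 3 of Cimicifugae Rhizoma at the high dose stood apart from their groups, with root mean square deviations of 0.132 and 0.146 on the log2 scale against 0.0949 in the next library. For the subunit genes, the main results of comparisons that include them are given with and without them. The fit took the spread of each gene over all groups, so both libraries also entered the SEs of the other comparisons. Those were refitted without them only where the compared groups or 1 code set were fitted alone. Mitochondrially encoded genes took 7.37% and 7.70% of the counts in these libraries, against 5.32% to 5.88% in the other replicates of both groups. Of the astrocytic markers, SLC1A3 (33.9 CPM, counts scaled by library size and edgeR's TMM factor, in the vehicle), GJA1 (241 CPM) and SOX9 (70.5 CPM) were present, while GFAP (0.137 CPM), S100B (0.113 CPM), ALDH1L1 (0.0287 CPM), SLC1A2 (0.366 CPM) and AQP4 (0 CPM) were at or near 0. Of the markers of other cell types, the neuronal RBFOX3 and SYP, the epithelial EPCAM and CDH1, the immune AIF1, CD3E and MS4A1 and the endothelial PECAM1, CDH5 and VWF were at 0 to 0.711 CPM. The neuronal SNAP25 (34.6 CPM) and MAP2 (8.91 CPM), the epithelial KRT18 (226 CPM) and KRT8 (19.2 CPM) and the immune CD68 (141 CPM) and PTPRC (13.5 CPM) were detected.

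In the vehicle, the subunit genes differed widely in level. Per kilobase of the principal transcript, PSMD2, a scaffold of the base, led in the vehicle with 259 ± 1.34 CPM per kb (SD, n = 3). The alpha ring gene PSMA7 followed with 222 ± 9.28 CPM per kb and the beta ring gene PSMB3 with 188 ± 3.95 CPM per kb. These 3 genes held the same ranks when the length of all exons was used in place of the principal transcript. PSMB4 (179 ± 8.74 CPM per kb), PSMB7 (176 ± 5.01 CPM per kb), PSMA6 (174 ± 5.33 CPM per kb) and PSMB1 (170 ± 4.98 CPM per kb) came next, and these neighbours differed by less than the sum of their SDs. The lowest were PSMD9 (12.0 ± 0.0269 CPM per kb), a chaperone of base assembly, and the immunoproteasome genes PSMB10 (15.3 ± 0.815 CPM per kb) and PSMB9 (21.8 ± 0.555 CPM per kb). PSMD5 (24.4 CPM per kb), PSMA5 (27.8 CPM per kb) and PSMA4 (30.8 CPM per kb) lay between these and the immunoproteasome gene PSMB8 (33.1 ± 1.41 CPM per kb). With the length of all exons, PSMD5 (18.9), PSMA5 (18.1) and PSMA4 (19.4) lay above PSMB8 (12.4 CPM per kb). The longest of equally ranked principal transcripts was used, which was 4411 bases for PSMA4. Ranks in between depended on the length used: PSMA6 was 6 by principal transcript and 23 by all exons.

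**Figure D1:**
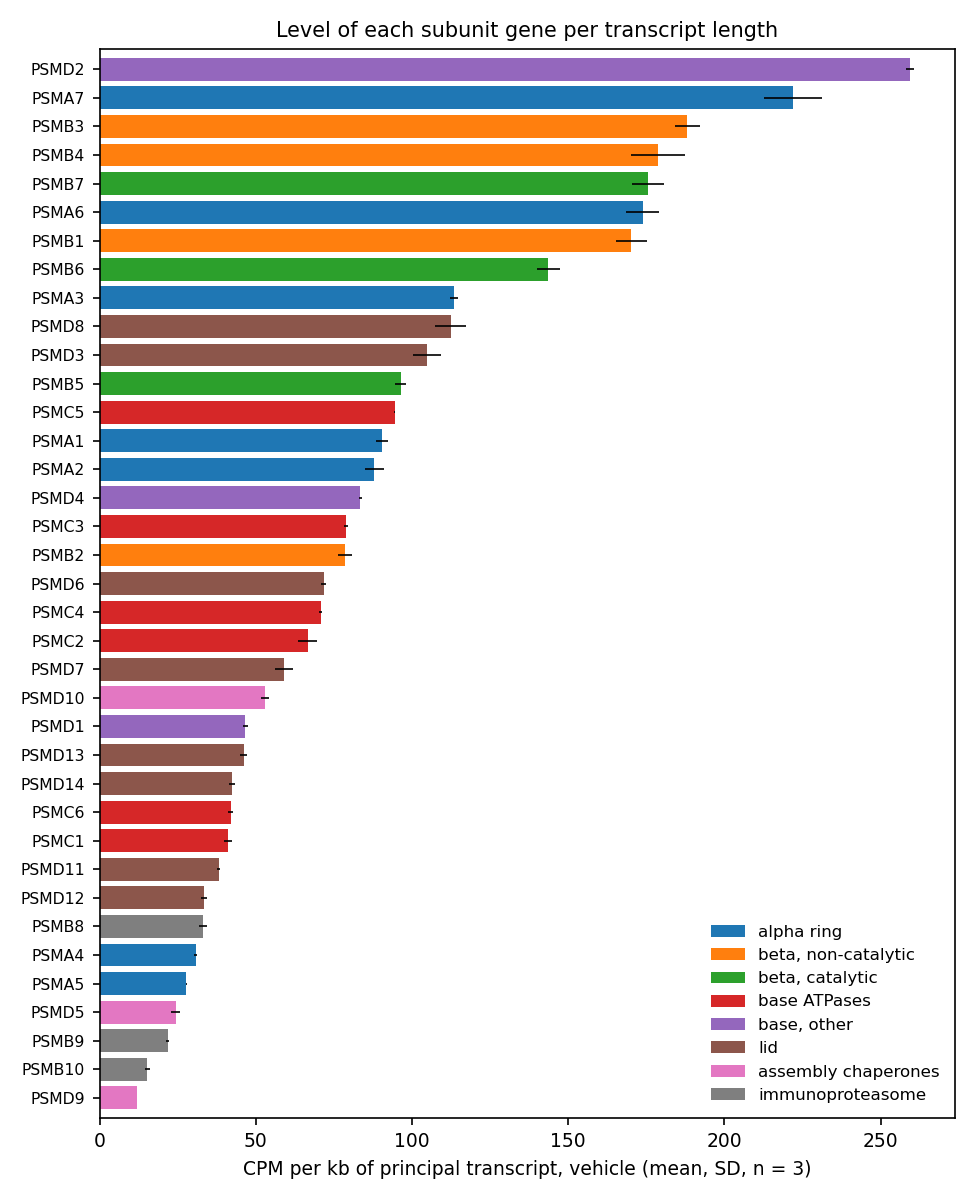
Levels of the 37 detected subunit genes in the 3 vehicle libraries, in CPM per kb of principal transcript (bars: mean; lines: SD, n = 3), coloured by role. PSMD2, PSMA7 and PSMB3 have the longest bars, and PSMB9, PSMB10 and PSMD9 the shortest.

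NFE2L1 and NFE2L2 are known to bind antioxidant response elements, so the promoters were searched for that element. RefSeq promoters (GRCh38.p14) were found for 34 of the 39 genes, and the 250 bases before the start were searched on both strands for the element's core, TGACNNNGC (GCNNNGTCA on the other strand). The core was present in 6 of the 34, or 17.6%, against 11.0% of all 27305 promoters. These were PSMB3, PSMB9, PSMD3, PSMD5, PSMD9 and PSMD12. The letters CCAAT, or on the other strand the letters ATTGG, were present in 16 of the 34, or 47.1%, against 33.0% of all promoters. The cores and CCAAT were searched separately, and a match is a description of letters only. The windows of PSMB3 and PSMD12, which fell with Aconiti Lateralis Radix Preparata, and of PSMD9, which rose with it, are shown as examples of promoters with the core whose genes moved in opposite directions. They are printed 5′ to 3′ with the core in capitals. They lie at chr17:38752491-38752740 on the + strand (PSMB3, non-catalytic beta ring, match 104 bases before the start), chr17:67366578-67366827 on the - strand (PSMD12, lid, 165 bases before) and chr12:121888540-121888789 on the + strand (PSMD9, matches 149 and 102 bases before).
PSMB3: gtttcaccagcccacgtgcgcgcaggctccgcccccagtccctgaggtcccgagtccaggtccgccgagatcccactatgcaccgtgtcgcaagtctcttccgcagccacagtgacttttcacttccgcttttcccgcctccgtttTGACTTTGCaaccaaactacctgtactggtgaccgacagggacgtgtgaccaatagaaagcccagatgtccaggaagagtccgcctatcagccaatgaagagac
PSMD12: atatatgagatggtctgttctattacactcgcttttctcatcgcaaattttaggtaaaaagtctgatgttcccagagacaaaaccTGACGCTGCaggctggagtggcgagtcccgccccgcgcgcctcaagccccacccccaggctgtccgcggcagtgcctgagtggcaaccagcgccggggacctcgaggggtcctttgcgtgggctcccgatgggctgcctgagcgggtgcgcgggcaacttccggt
PSMD9: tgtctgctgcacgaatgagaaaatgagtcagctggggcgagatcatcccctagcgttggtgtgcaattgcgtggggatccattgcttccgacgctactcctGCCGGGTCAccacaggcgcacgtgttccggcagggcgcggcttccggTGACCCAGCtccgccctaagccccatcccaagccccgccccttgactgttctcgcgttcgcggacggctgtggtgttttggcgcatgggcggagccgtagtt

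Over the whole series the subunit genes moved little. From the highest to the lowest of the 19 replicated groups, mean CPM differed 1.12-fold for PSMD8, a lid subunit, and 1.39-fold for PSMA7, the ends of the range over 37 genes. Without the 2 libraries that stood apart the range ran from 1.10-fold for PSMB6 to 1.40-fold for PSMB9, and PSMA7 was at 1.25-fold. For the 34 tested genes outside the immunoproteasome, the lowest of the 19 groups was the high dose of Aconiti Lateralis Radix Preparata for 13, of Cimicifugae Rhizoma for 12 and of Yijung-tang for 5. The remaining 4 were lowest at the medium dose of Aconiti Lateralis Radix Preparata (2) or Cimicifugae Rhizoma (2). Without the 2 libraries, the high doses of Aconiti Lateralis Radix Preparata, Yijung-tang and Cimicifugae Rhizoma were lowest for 16, 8 and 5 genes. In each library, the median log2 ratio of these 34 genes to their vehicle means was taken. It was 0.02, -0.02 and 0.00 in the vehicle itself. With Aconiti Lateralis Radix Preparata at the high dose it was -0.16, -0.13 and -0.18, and with Cimicifugae Rhizoma -0.15, -0.13 and -0.31, where the last value is the library that stood apart. Yijung-tang gave -0.16, -0.12 and -0.07 and Citri Unshius Pericarpium -0.09 in all 3 libraries. In bulk RNA, fewer cells of a type and less RNA per cell cannot be told apart. Values lay close to the vehicle with Bupleuri Radix (0.01, -0.02 and -0.01) and Banhasasim-tang (-0.04, -0.04 and 0.05). The single Bojungikgi-tang libraries had -0.01, -0.02 and -0.04 at the high, medium and low dose.

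**Figure D2:**
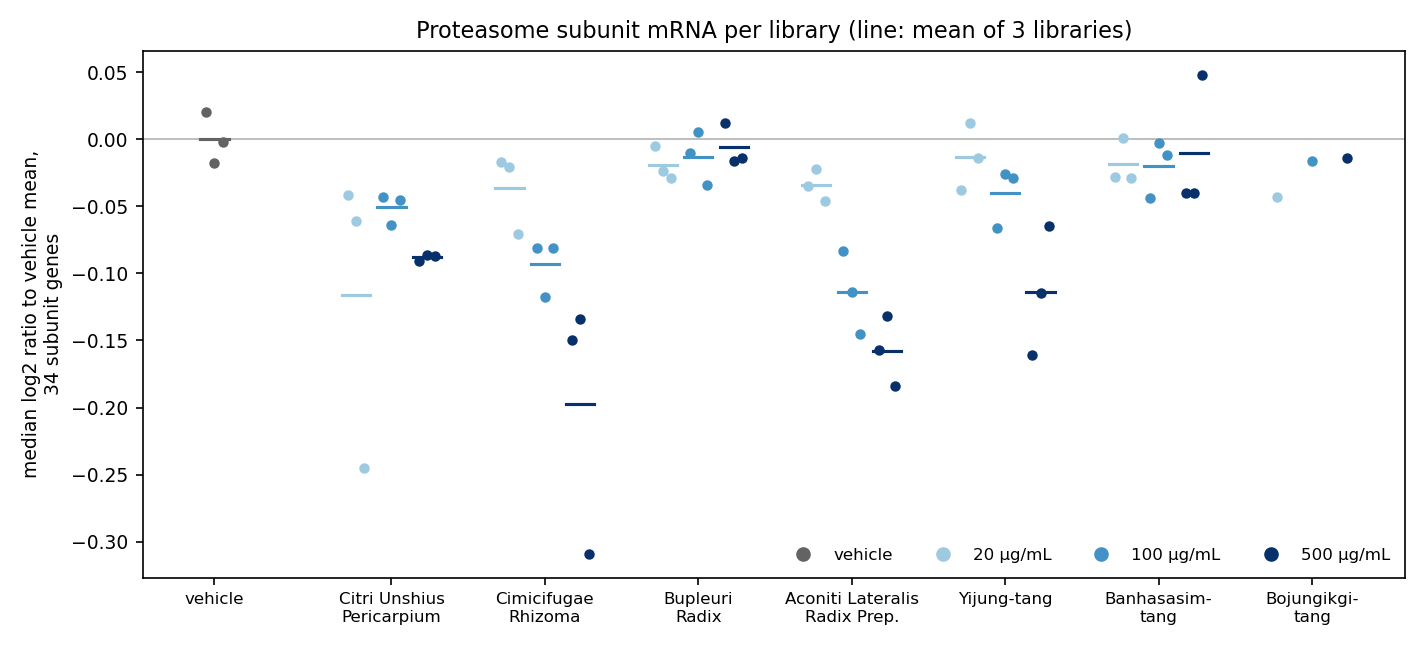
Median log2 ratio of 34 subunit genes outside the immunoproteasome to their vehicle means, for each library (points) by extract and dose, with the mean of 3 libraries as a line. At the high dose, all libraries of Cimicifugae Rhizoma, Aconiti Lateralis Radix Preparata, Yijung-tang and Citri Unshius Pericarpium lie below the 3 vehicle libraries, and the lowest point, -0.31, is replicate 3 of Cimicifugae Rhizoma.

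With Cimicifugae Rhizoma most subunit genes were lower. At the high dose, 32 of 37 subunit genes fell and 1, PSMB9, rose against the vehicle, where 32.5% of all 17190 genes tested were called at an adjusted p under 0.05 (edgeR quasi-likelihood test, Benjamini-Hochberg) and 17.5% were called lower. The median log2 fold change was -0.19 over the 34 genes outside the immunoproteasome and 0.01 over all genes. All 7 alpha ring genes, all 7 standard beta genes, all 6 ATPases and all 3 assembly chaperones fell. So did 7 of 8 lid genes and 2 of 3 other base genes, leaving the lid gene PSMD7 (log2 fold change -0.04) and the ubiquitin receptor PSMD4 (-0.11) uncalled. Every high-dose library lay below every vehicle library for 31 of 37 genes, against 20.1% of all genes. Without TMM factors 19 fell and 1 rose, and with only these groups in the fit 14 were called in all.

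PSMA7 was at 216, 216 and 232 CPM in the vehicle and at 186, 188 and 133 CPM with Cimicifugae Rhizoma at the high dose. The groups did not overlap and replicate 3 was far below the other 2. Its log2 fold change was -0.39 (SE 0.09, edgeR adjusted p = 0.00032), and -0.24 (SE 0.06, edgeR adjusted p = 0.000774) without the libraries that stood apart. PSMD2 was at 900, 893 and 891 CPM in the vehicle and at 732, 750 and 637 CPM at the high dose. Its change was -0.34 (SE 0.05, edgeR adjusted p = 9.13e-08), or -0.27 without the libraries that stood apart, and the low-dose libraries, at 824, 824 and 838 CPM, lay in between. PSMB7, which carries the trypsin-like active site, went from 174, 166 and 176 CPM to 146, 147 and 123 CPM, a change of -0.32 (SE 0.05, edgeR adjusted p = 1.93e-06), or -0.23 without those libraries. The calls of PSMD2 and PSMB7 held whichever library was left out, while PSMA7 against the low dose lost its call without replicate 3 of the high dose (log2 fold change -0.20, edgeR adjusted p = 0.0755).

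PSMA2, an alpha ring gene chosen after its values were seen, was lowest in the 2 libraries that stood apart. It was at 136, 128 and 128 CPM in the vehicle, at 116, 119 and 64.3 CPM with Cimicifugae Rhizoma at the high dose and at 129, 126 and 65.7 CPM with Citri Unshius Pericarpium at the low dose. Its lowest value in any other library was 95.7 CPM. Its change with Cimicifugae Rhizoma was -0.39 (SE 0.13, edgeR adjusted p = 0.0188) with all libraries and -0.15 (SE 0.07, edgeR adjusted p = 0.0851) without the 2. Over all members, 26 genes fell and 1 rose against the vehicle without them, with a median of -0.14 over the 34 genes, and 22 were called without replicate 3 of the high dose alone. An unnamed protein-coding gene overlaps PSMA2 on its strand, so its counts are uncertain.

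Against its own low dose, Cimicifugae Rhizoma at the high dose had 22 of 37 subunit genes lower and 0 higher, against 25.1% of all genes called and 13.5% called lower. Without the 2 libraries, 15 fell and 1, PSMB9, rose, and without replicate 3 of the high dose alone 12 were called in all. With only these groups in the fit 5 were called. At the medium dose, 5 fell against the vehicle (PSMD2, PSMC4, PSMB2, PSMD11 and PSMD3, by 0.12 to 0.15 on the log2 scale), against 6.63% of all genes called and 3.92% called lower. That count was 1 without medium-dose replicate 2, 2 without medium-dose replicate 1 or vehicle replicate 1 or 3, and 3 without medium-dose replicate 3. At the low dose 0 were called in edgeR and 0 in DESeq2, with 4 at an unadjusted p under 0.05, against 1.27% of all genes.

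With Aconiti Lateralis Radix Preparata, the fall was uneven. Its median against the vehicle lay between those of Cimicifugae Rhizoma with all libraries (-0.19) and without the 2 that stood apart (-0.14). At the high dose 23 of 37 genes fell and 3 rose against the vehicle, where 60.4% of all genes were called, 28.9% lower and 31.5% higher. The median was -0.17 over the 34 genes outside the immunoproteasome and 0.01 over all genes. The 4 non-catalytic beta genes and 5 of 6 ATPases fell, with 6 of 8 lid genes and 4 of 7 alpha ring genes. Of the catalytic beta genes only PSMB5 fell (-0.23), while PSMB6 and PSMB7 were not called. All high-dose libraries lay below the vehicle for 27 genes and above it for 4, against 31.4% and 34.2% of all genes.

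The ATPase PSMC3 was at 125, 124 and 125 CPM in the vehicle, at 113, 120 and 112 CPM at the low dose, at 113, 108 and 108 CPM at the medium dose and at 95.6, 92.9 and 93.9 CPM at the high dose. The high-dose libraries were the lowest and did not overlap any other group. The change from the vehicle was -0.41 (SE 0.05, edgeR adjusted p = 6.89e-11). The ATPase PSMC5 went from 149, 149 and 149 CPM to 124, 116 and 118 CPM, a change of -0.32 (SE 0.05, edgeR adjusted p = 2.16e-07). The base scaffold PSMD1 went from 159, 154 and 154 CPM to 132, 124 and 125 CPM, a change of -0.29 (SE 0.03, edgeR adjusted p = 3.64e-10). Each of the 3 was also lower than at the low dose, by 0.28 to 0.29 on the log2 scale, and no call was lost when any 1 library was left out.

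Genes that rose against this fall were PSMB10, PSMD7 and PSMD9. PSMD7, a lid subunit, was at 104, 95.7 and 95.8 CPM in the vehicle and at 108, 112 and 104 CPM at the high dose, and 1 vehicle library overlapped the treated ones. Its change was 0.13 (SE 0.04, edgeR adjusted p = 0.00424). PSMD9 was at 33.4, 33.5 and 33.5 CPM in the vehicle, at 33.0, 31.3 and 30.4 CPM at the low dose and at 39.9, 35.4 and 36.0 CPM at the high dose. It was higher than the vehicle by 0.14 (SE 0.06, edgeR adjusted p = 0.034) and than the low dose by 0.23 (SE 0.06, edgeR adjusted p = 0.00111), with no overlap. The call against the vehicle was lost without replicate 1 of the high dose (0.09, edgeR adjusted p = 0.222) and without any 1 vehicle library (0.14 each, edgeR adjusted p = 0.0711 to 0.0751). PSMD9 overlaps CFAP251 and an unnamed gene on its strand.

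The rises depended on the scaling used. Library sizes without TMM factors (edgeR's trimmed scaling factors) moved the median of all genes by -0.13 on the log2 scale in this comparison, and by at most 0.05 in size at the high dose of the other extracts against the vehicle. Under that scaling 31 subunit genes fell and 0 rose, and PSMD7 (0.0016) and PSMD9 (0.02) were not called. The median of the subunit genes went from -0.157 to -0.286, while that of all genes went from 0.006 to -0.123. The share of all genes called without TMM factors was not counted. Against the low dose, 15 genes fell and 4 rose with TMM, where 57.8% of all genes were called, 27.4% lower and 30.4% higher, and 29 fell and 1 rose without. At the medium dose 15 fell and 0 rose against the vehicle, from PSMC2 (-0.20) to PSMD3 (-0.09), against 31.1% of all genes called and 15% called lower. Without replicate 3 of the medium dose 8 were called. With only the compared groups in the fit, 30 were called against the low dose and 23 at the medium dose. At the low dose 0 were called in edgeR and 1 in DESeq2, with 3 at an unadjusted p under 0.05, against 2.19% of all genes.

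**Figure D3:**
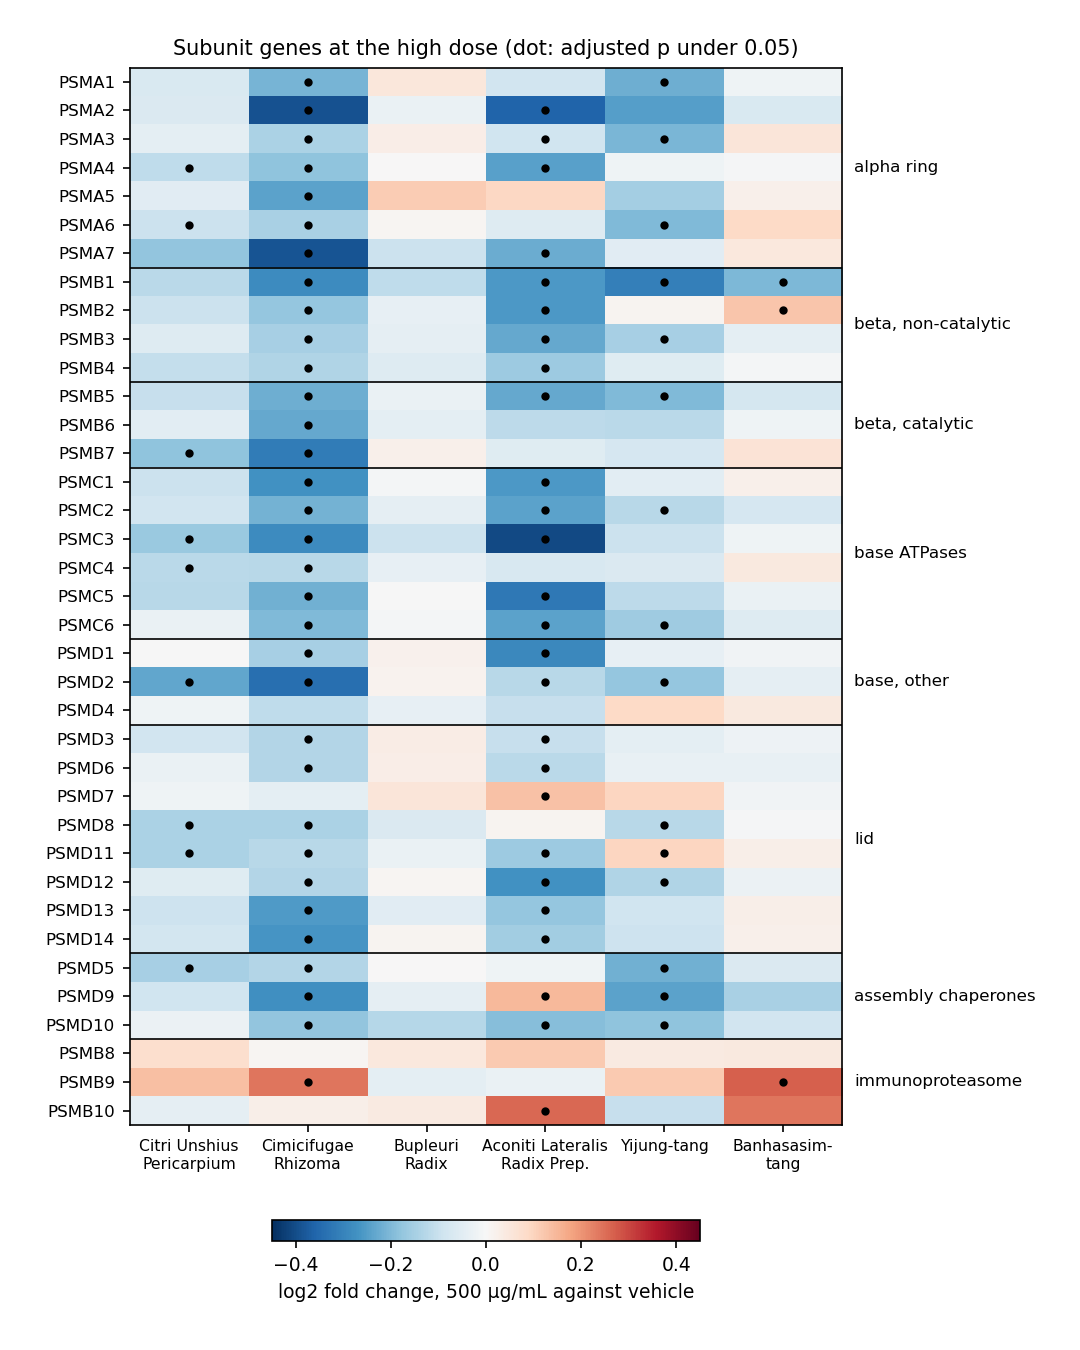
Log2 fold change of each of the 37 tested subunit genes at the high dose against the vehicle, by role (lines separate roles) and extract, with a dot where the edgeR adjusted p was under 0.05. Dots are most frequent in the columns of Cimicifugae Rhizoma and Aconiti Lateralis Radix Preparata, and no dot stands under Bupleuri Radix.

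With Yijung-tang at the high dose 14 of 37 subunit genes fell and 1 rose, where 32% of all genes were called, 16.7% lower and 15.3% higher. The median over the 34 genes was -0.12. All 3 assembly chaperones fell (PSMD5 -0.22, PSMD9 -0.24, PSMD10 -0.18), with 3 alpha ring genes, 2 non-catalytic beta genes, 2 ATPases, 2 lid genes, PSMB5 and PSMD2. The gene that rose was the lid subunit PSMD11 (0.10, SE 0.03, edgeR adjusted p = 0.0246), a call lost without replicate 1 of the high dose (0.05, edgeR adjusted p = 0.319) or without vehicle replicate 2 or 3 (0.09 each). All high-dose libraries lay below the vehicle for 21 genes, against 20.5% of all genes.

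PSMD5, a chaperone that keeps base subassemblies apart from the core, was at 89.6, 82.5 and 79.5 CPM in the vehicle, at 81.5, 82.4 and 89.5 CPM at the low dose and at 71.3, 76.7 and 68.3 CPM at the high dose. The high-dose libraries were below both groups. Its change was -0.22 against the vehicle (SE 0.04, edgeR adjusted p = 5.4e-05) and -0.23 against the low dose (SE 0.04, edgeR adjusted p = 2.89e-05). The alpha ring gene PSMA3 went from 110, 109 and 112 CPM in the vehicle to 91.9, 102 and 91.6 CPM, a change of -0.21 (SE 0.04, edgeR adjusted p = 6.5e-05). PSMA1, also of the alpha ring, went from 136, 139 and 133 CPM to 116, 120 and 115 CPM, a change of -0.22 (SE 0.05, edgeR adjusted p = 0.000168). These 3 calls held when any 1 library was left out. Against the low dose 7 genes fell and 0 rose, where 21.7% of all genes were called and 11.5% called lower, and 15 were called with no filter on low counts. At the medium dose only PSMD9 (-0.19) was called, against 6.28% of all genes called and 3.55% called lower, and it was not called whichever library was left out. At the low dose 0 were called in edgeR and 0 in DESeq2, with 3 at an unadjusted p under 0.05, against 6.38% of all genes.

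With Citri Unshius Pericarpium at the high dose 9 of 37 genes fell and 0 rose, where 21.6% of all genes were called, 11.8% lower. They were led by PSMD2 (-0.23), PSMB7 (-0.18) and PSMC3 (-0.17). All 34 genes outside the immunoproteasome had a fold change below 0, with a median of -0.09, and all high-dose libraries lay below the vehicle for 20 genes, against 20.8% of all genes. Without TMM factors 2 genes were called, and 19 with only these groups in the fit. Against the low dose 2 genes fell and 1 rose, where 18.2% of all genes were called, 10% lower and 8.19% higher. The genes that fell were PSMD5 and PSMD8 (-0.14 each), and neither was called without the libraries that stood apart (-0.13 and -0.11), where PSMD2 (-0.15) and PSMB7 (-0.18) were called instead. Without low-dose replicate 1 the count was 6. PSMD5 was at 82.0, 83.0 and 84.6 CPM at the low dose and at 74.0, 77.4 and 75.7 CPM at the high dose, against 89.6, 82.5 and 79.5 CPM in the vehicle. The lid subunit PSMD8 was at 182, 166 and 175 CPM in the vehicle, at 171, 171 and 181 CPM at the low dose and at 159, 155 and 160 CPM at the high dose. Neither overlapped the vehicle or the low dose. Against the vehicle the changes were -0.15 (SE 0.04, edgeR adjusted p = 0.00618) and -0.14 (SE 0.04, edgeR adjusted p = 0.0145), and both calls were lost without vehicle replicate 1 (-0.10 and -0.11). The median of the 34 genes against the low dose was 0.04 with all libraries and -0.03 without those 2, with 21 and 7 genes above 0. Without TMM factors 5 genes rose and 0 fell. At the low dose 2 genes, PSMD2 (-0.18) and PSMC2 (-0.16), fell against the vehicle, against 1.88% of all genes called and 0.721% called lower. The count was 0 without low-dose replicate 3 or vehicle replicate 1 or 2, 1 without vehicle replicate 3, and 5 without low-dose replicate 1 or 2. At the medium dose 0 were called in edgeR and 0 in DESeq2, with 7 at an unadjusted p under 0.05, against 2.07% of all genes.

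Bupleuri Radix and Banhasasim-tang left most subunit genes uncalled. With Bupleuri Radix 0 of 37 were called at the high dose in edgeR and 0 in DESeq2, with 2 at an unadjusted p under 0.05, where 7.02% of all genes were called. With only these groups in the fit, edgeR called 3 subunit genes. In the fit of all groups, fold changes ran from -0.13 to 0.11, with SEs of 0.03 to 0.13. These SEs rest on the spread over all 19 groups, and with them changes of this size were not detectable for the noisier genes. At the medium and low dose 0 were called by either tool, with 0 and 3 at an unadjusted p under 0.05, against 0.413% and 0.0756% of all genes. Between its high and low dose 0 were called by either tool, with 1 at an unadjusted p under 0.05, against 4.37%. With Banhasasim-tang 2 genes rose and 1 fell at the high dose, where 16.8% of all genes were called, 7.99% higher and 8.82% lower. PSMB2 was at 216, 206 and 216 CPM in the vehicle and at 223, 232 and 240 CPM at the high dose, a change of 0.12 (SE 0.04, edgeR adjusted p = 0.0185). That call was lost without replicate 3 of the high dose or vehicle replicate 2 (0.10 each). PSMB1 was at 160, 153 and 161 CPM in the vehicle and lower at every dose, at 136, 134 and 143 CPM at the high, 138, 138 and 138 CPM at the medium and 129, 147 and 135 CPM at the low dose. Of all 19 replicated groups the vehicle had the highest mean of PSMB1 (158 CPM), so this gene was below the vehicle with every extract. With Banhasasim-tang its changes were -0.20, -0.20 and -0.21. It was the 1 gene called at the medium dose (8.32% of all genes called, 4.52% lower) and at the low dose (5.75%, 3.14% lower). It was not called between high and low dose. At the high dose its call was lost without high-dose replicate 1 or 2 or vehicle replicate 1 or 3 (-0.18 to -0.19), at the medium dose without any 1 of the 6 libraries, and at the low dose without any of these except low-dose replicate 2.

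None of the 3 immunoproteasome genes was called lower against the vehicle at a high dose, and PSMB9 with Aconiti Lateralis Radix Preparata stood at -0.03 with TMM factors and -0.16 without. With Cimicifugae Rhizoma at the high dose PSMB9 was at 21.9, 20.9 and 17.6 CPM, against 16.8, 16.8 and 17.5 CPM in the vehicle. The groups were apart by a narrow margin in replicate 3. The change was 0.24 (SE 0.08, edgeR adjusted p = 0.0207) and 0.33 (SE 0.08, edgeR adjusted p = 0.00148) without the libraries that stood apart. With Banhasasim-tang PSMB9 was at 20.3, 20.5 and 20.9 CPM, all above the vehicle, a change of 0.27 (SE 0.08, edgeR adjusted p = 0.0152). Both calls were lost without vehicle replicate 1 or 2 (edgeR adjusted p of 0.0517 to 0.0636). The changes were then 0.23 and 0.26, close to those with all libraries. The first call was also lost without high-dose replicate 1 (0.18) or 2 (0.22).

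PSMB10 was at 17.6, 18.9 and 19.6 CPM in the vehicle. With Aconiti Lateralis Radix Preparata at the high dose it was at 23.4, 23.0 and 20.7 CPM and with Banhasasim-tang at 20.6, 22.8 and 22.9 CPM, and neither group overlapped the vehicle. The log2 fold changes were 0.26 (SE 0.09, edgeR adjusted p = 0.0159) and 0.24 (SE 0.09, edgeR adjusted p = 0.0607). Against their low doses both were called, at 0.32 (SE 0.10, edgeR adjusted p = 0.00331) and 0.36 (SE 0.09, edgeR adjusted p = 0.0057). Calls for Aconiti Lateralis Radix Preparata against the vehicle were lost without TMM factors (0.13) and without high-dose replicate 1 (0.23) or 2 (0.23) or vehicle replicate 1 (0.21). Against the low dose, those of both extracts were lost without low-dose replicate 3 (0.22 and 0.30). An unnamed gene overlaps PSMB10 on its strand.

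PSMB8 was at 38.5, 37.8 and 35.5 CPM in the vehicle and was called against the vehicle at no high dose. Against the low dose it rose with Aconiti Lateralis Radix Preparata, from 33.0, 37.1 and 36.4 CPM to 41.1, 39.5 and 40.8 CPM (0.19, SE 0.06, edgeR adjusted p = 0.00737). That call was lost without low-dose replicate 1 (0.13) and without TMM factors (0.09), where its value against the vehicle turned from 0.12 to -0.01. With Citri Unshius Pericarpium it rose from 36.8, 34.6 and 28.9 CPM to 39.5, 40.3 and 38.0 CPM (0.23, SE 0.06, edgeR adjusted p = 0.00521), which included the library that stood apart, and without that library it was not called (0.13). PSMB8 and PSMB9 overlap each other and an antisense gene, and no label states the strand setting of the counting, so their counts may share reads. Against its low dose, Banhasasim-tang had 1 called subunit gene in all, PSMB10, against 6.67% of all genes called and 3.08% called higher.

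**Figure D4:**
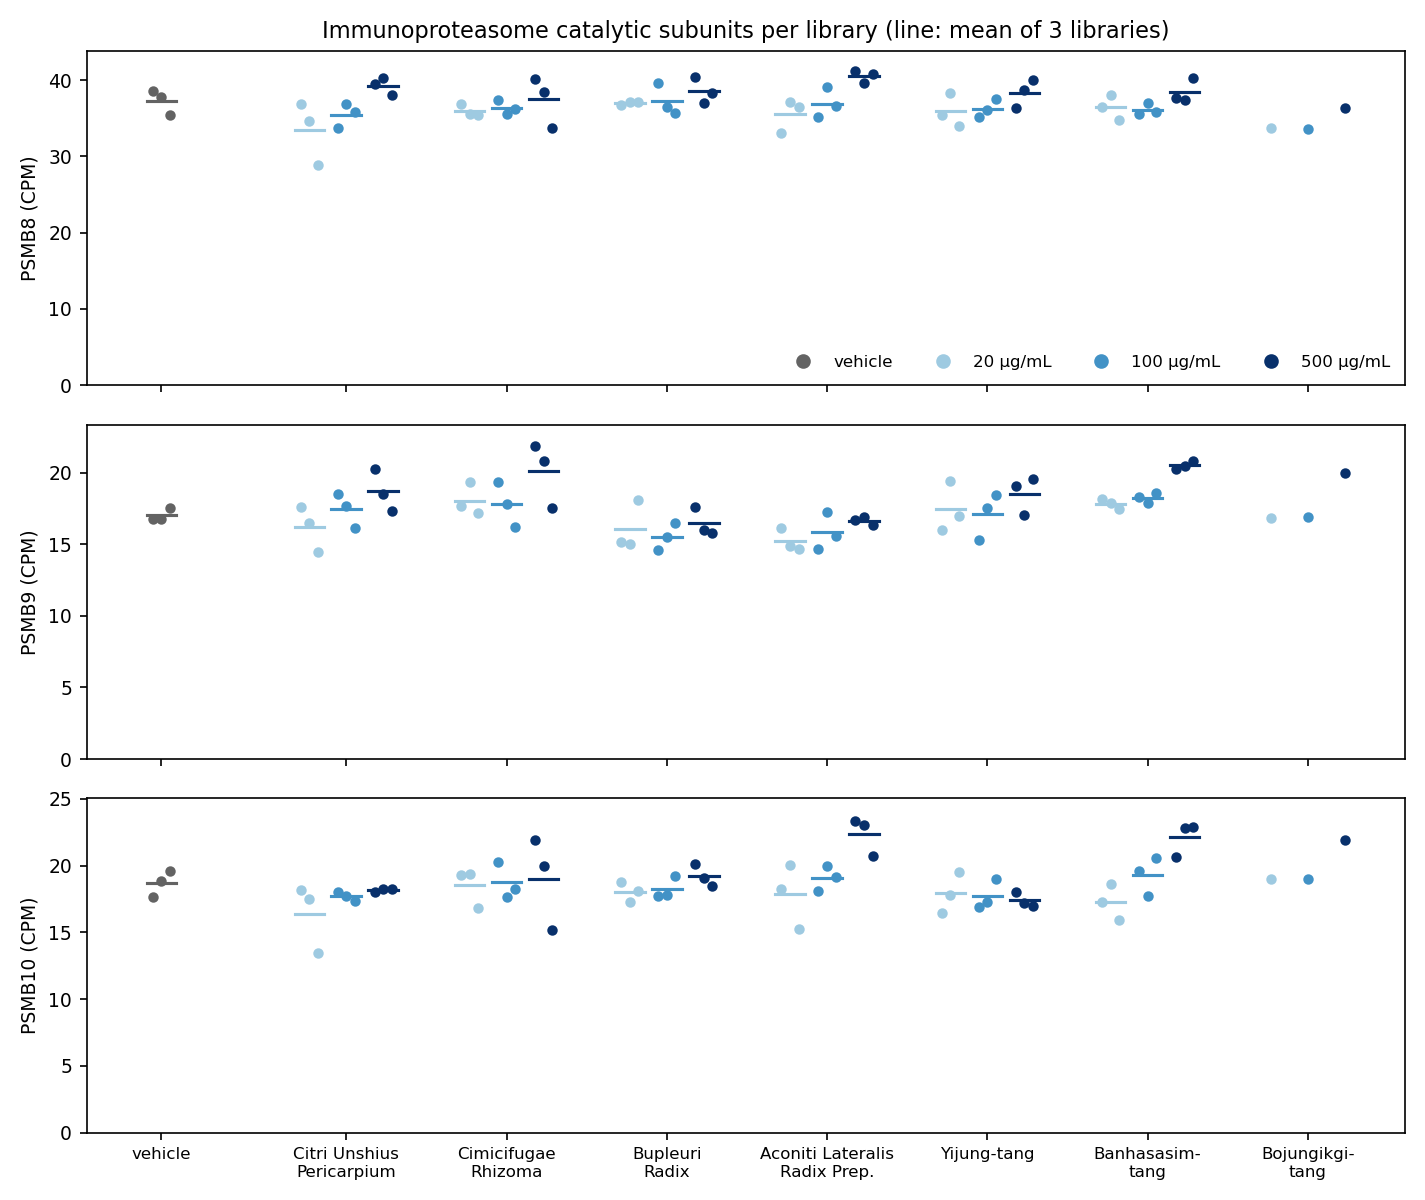
CPM of PSMB8, PSMB9 and PSMB10 in each library (points) by extract and dose, with the mean of 3 libraries as a line and each axis starting at 0. PSMB10 is highest with Aconiti Lateralis Radix Preparata and Banhasasim-tang at the high dose, and the low points of Citri Unshius Pericarpium at the low dose are replicate 3.

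Whether extracts differed in their high-against-low change was tested directly. The difference between Aconiti Lateralis Radix Preparata and Bupleuri Radix, which share a code set, was called for 10 subunit genes, all lower with the former, against 44% of all genes called and 21.1% called lower. PSMC5 (-0.33, SE 0.07, edgeR adjusted p = 0.000105) and PSMD1 (-0.31, SE 0.05, edgeR adjusted p = 4.66e-07) led them. Between Yijung-tang and Banhasasim-tang 5 genes were called, against 10.1% of all genes called and 5.53% called lower, and all were lower with Yijung-tang, namely PSMB10 (-0.40), PSMA3 (-0.28), PSMA6 (-0.25), PSMA1 (-0.24) and PSMB3 (-0.19). That count was 3 without high-dose replicate 3 or low-dose replicate 1 of Banhasasim-tang or low-dose replicate 2 or 3 of Yijung-tang. Between Citri Unshius Pericarpium and Cimicifugae Rhizoma 16 were called with all libraries, against 11.1% of all genes called and 5.54% called higher, and 0 without the 2 libraries that stood apart, where the median difference over the 34 genes was 0.07 in place of 0.18. It was 3 without replicate 3 of Cimicifugae Rhizoma at the high dose alone, 4 without replicate 3 of Citri Unshius Pericarpium at the low dose alone, 7 without low-dose replicate 1 of the former or high-dose replicate 2 of the latter, and 9 without high-dose replicate 3 of the latter.

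Across code sets, Aconiti Lateralis Radix Preparata was set against the other 4 extracts in the same way. Against Citri Unshius Pericarpium 11 genes were lower and 1 higher, where 46.4% of all genes were called, 22.1% lower and 24.3% higher. Against Banhasasim-tang these were 13 and 2 (44.7% of all genes, 21.2% lower and 23.5% higher), and against Yijung-tang 8 and 4 (47.4%, 22.4% and 25%). Against Cimicifugae Rhizoma 2 were lower and 4 higher (46.8%, 22.1% and 24.6%), with a median of 0.03 over the 34 genes and of -0.04 without the 2 libraries that stood apart. The counts were 21 in all against Citri Unshius Pericarpium without its low-dose replicate 1, 19 without its replicate 2, and 7 against Yijung-tang without high-dose replicate 2 of Aconiti Lateralis Radix Preparata. Without TMM factors 27 genes were lower and 0 higher against Citri Unshius Pericarpium, 21 were lower and 0 higher against Banhasasim-tang, 15 and 1 against Yijung-tang, and 10 and 1 against Cimicifugae Rhizoma. PSMD1 was among the lower genes in each of the 4 differences (-0.34, -0.27, -0.27 and -0.16). PSMD9 was among the higher ones against Cimicifugae Rhizoma (0.45, SE 0.09, edgeR adjusted p = 2.11e-05), Yijung-tang (0.36) and Banhasasim-tang (0.29).

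Other genes of the pathway were read from lists of activators, assembly factors, associated proteins, regulators, ubiquitin genes and shuttles. With Aconiti Lateralis Radix Preparata at the high dose all 8 regulators rose, where 31.5% of all genes were called higher. The smallest rise was that of DDI2 (0.18, SE 0.05), and the shift of all genes between scalings was -0.13 in this comparison. They included NFE2L1 (0.63, SE 0.04), the factor that raises subunit genes, and its small MAF partners MAFF (2.06, SE 0.07) and MAFG (1.43, SE 0.05). The shuttle SQSTM1 rose by 1.98 and the stress-induced cap partner ZFAND2A by 1.09. Of 6 NRF2 targets all rose, led by HMOX1 (3.41), and of 6 heat shock genes all fell, led by HSPA1A (-1.28). The core assembly factor POMP (-0.19) and the small lid subunit SEM1 (-0.34) fell beside the subunit genes.

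With Cimicifugae Rhizoma 2 regulators rose and 1 fell, with NFE2L1 at 0.13 (SE 0.04), where 15.1% of all genes were called higher. POMP fell by 0.36 on the log2 scale, PSMG1, which pairs alpha subunits during assembly, fell by 0.25, and SEM1 fell by 0.25. The pathway, stress and interferon lists were read only with all libraries. Their values for Cimicifugae Rhizoma at the high dose therefore include replicate 3, which stood apart, and its part in them was not tested. All 6 NRF2 targets rose, led by NQO1 (0.87). They also rose, all 6, with Yijung-tang (15.3% of all genes called higher) and with Bupleuri Radix (7.02% called in either direction), where 0 subunit genes were called. With Citri Unshius Pericarpium (21.6% called in either direction) and with Banhasasim-tang (7.99% called higher) 4 of 6 rose. With Banhasasim-tang the activator genes PSME1 (0.39, SE 0.05) and PSME2 (0.38, SE 0.05), which cap the immunoproteasome, rose, and 5 of 10 interferon genes rose and 0 fell, led by MX1 (0.75) and IRF1 (0.59), where 7.99% of all genes were called higher and 8.82% lower. Yijung-tang raised PSME1 (0.23) and PSME2 (0.18) too, with 1 interferon gene higher and 3 lower, led by IFIT1 (-0.40) and ISG15 (-0.38), where 15.3% of all genes were called higher and 16.7% lower. The rise was not particular to Banhasasim-tang. Against the low dose 5 of 10 interferon genes rose and 0 fell with it (6.67% of all genes called). With Cimicifugae Rhizoma these were also 5 and 0 (25.1%), and with Aconiti Lateralis Radix Preparata 5 and 1 (57.8%). They were 2 and 1 with Citri Unshius Pericarpium (18.2%), 1 and 1 with Bupleuri Radix (4.37%) and 0 and 2 with Yijung-tang (21.7%). In the high-dose libraries of Aconiti Lateralis Radix Preparata, mitochondrially encoded genes took 8.995% to 9.29% of the counts, against 5.025% to 5.286% in the vehicle. Their share was 10.561% to 10.839% at the medium dose and 6.447% to 7.557% at the low dose of that extract, and 5.942% to 8.209% with Yijung-tang at the high dose. Of the tested markers, 3 of 4 astrocytic genes fell with Aconiti Lateralis Radix Preparata at the high dose, led by SLC1A3 (-2.43). Of 5 progenitor and mesenchymal genes 4 fell, led by COL1A1 (-2.05), and VIM (0.31) rose. Of the other markers SNAP25, KRT8, KRT18 and PTPRC fell, MAP2 (0.85) and CD68 (0.48) rose, and SYP and PECAM1 were not called. The part of these shifts in the subunit genes' fall was not tested.

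**Figure D5:**
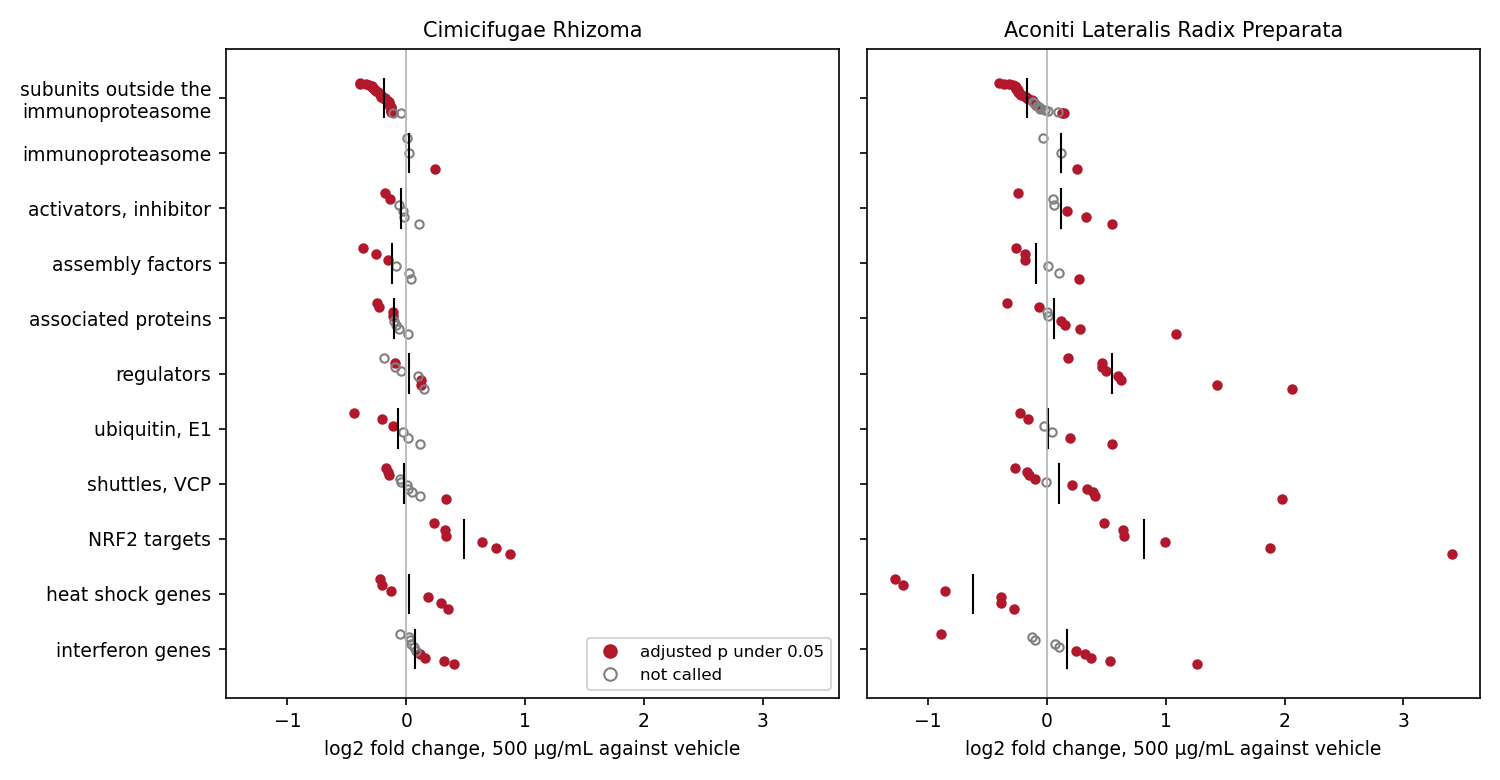
Log2 fold change at the high dose against the vehicle for the subunit genes and the pathway, stress and interferon lists, with Cimicifugae Rhizoma on the left and Aconiti Lateralis Radix Preparata on the right (points: genes, filled where the edgeR adjusted p was under 0.05; black bars: list medians). The subunit genes outside the immunoproteasome lie mostly below 0 in both panels, and the 8 regulators lie above 0 on the right, from 0.18 to 2.06.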

How the data were processed

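The authors deposited an expected count for each gene, made with RSEM 1.3.3 after FastQC 0.11.9, Trim Galore 0.6.5 and STAR 2.7.3a on hg38 (GRCh38), per the submitters' processing notes. Neither the labels nor the file header name the annotation release, the strand setting or read filters. RSEM divides ambiguous reads by estimate, so overlapping genes are uncertain. Of the values, 9.22% were not whole, and they were rounded. Symbols came from a gene name table (41209 identifiers), and biotypes, lengths and GRCh38 positions from GENCODE 29 (57055 identifiers).

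The 57 libraries of 19 groups were fitted together with edgeR 4.0.16 in R 4.3.3 (filterByExpr by group, TMM, glmQLFit, glmQLFTest), with Benjamini-Hochberg adjustment over 17190 genes and a call at an adjusted p under 0.05. CPM uses TMM factors. All comparisons with the vehicle share its 3 libraries, so none were set against each other by overlap. Values by library are printed for PSMB8, PSMB9 and PSMB10 and, per extract, for up to 3 members with the largest rise and fall among those called against both vehicle and low dose. PSMA2, PSMB1 and PSMB2 were added after their values were seen. From each pathway list up to 3 called genes with the largest change are named, with POMP and SEM1 added after their values were seen. The members and lists were chosen with earlier results of these data known.

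Replicates of a group differed by more than sampling noise (chi-square per degree of freedom 1.77 to 24.0), so each was counted. Same-numbered libraries of 2 groups did not deviate together (correlations -0.05 to 0.06 over 24 pairs of groups), so replicate numbers were not used as pairs. Alternatives were DESeq2 1.42.0, library sizes without TMM, no or a stricter filter (10 CPM in 3 libraries), only the compared groups, a replicate block over all groups or within a code set, each library left out, and, chosen after seeing the data, both libraries that stood apart left out. The scripts were tested on simulated data.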

Additional observations from a re-analysis of the deposited data

Results flagged for a closer look

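These results are listed because the high-against-low change of an extract differed from that of another in a direct edgeR test, and no explanation was weighed. For Citri Unshius Pericarpium against Cimicifugae Rhizoma 16 of 37 subunit genes were called (11.1% of all genes), and 0 without the 2 libraries that stood apart. For Yijung-tang against Banhasasim-tang 5 were called (10.1% of all genes). For Aconiti Lateralis Radix Preparata, 10 were called against Bupleuri Radix (44% of all genes) and 12 against Citri Unshius Pericarpium (46.4%). Against Cimicifugae Rhizoma 6 were called (46.8%), against Yijung-tang 12 (47.4%) and against Banhasasim-tang 15 (44.7%). In each comparison of Aconiti Lateralis Radix Preparata, the share called was smaller among the 37 subunit genes than among all genes. For Citri Unshius Pericarpium against Cimicifugae Rhizoma the largest differences were in PSMA2 (0.56) and PSMA7 (0.38). Without the 2 libraries that stood apart they were 0.07 and 0.08. For Yijung-tang against Banhasasim-tang the largest differences were in PSMB10 (-0.40) and PSMA3 (-0.28). For Aconiti Lateralis Radix Preparata they were in PSMC5 (-0.33) and PSMD1 (-0.31) against Bupleuri Radix, in PSMD1 (-0.34) and PSMC6 (-0.32) against Citri Unshius Pericarpium, in PSMD9 (0.45) and PSMA5 (0.32) against Cimicifugae Rhizoma, in PSMB10 (0.36) and PSMD9 (0.36) against Yijung-tang, and in PSMB2 (-0.30) and PSMD9 (0.29) against Banhasasim-tang.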

How the results depend on the processing

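Refits of the 138 called values of single genes gave 1766 values, of which none changed sign and 244 lost the call. These values are not independent, since 1 refit gave many of them and the refits reuse the same libraries. The 31 counts of called genes were refitted 199 times, of which 56 moved a count by over 1.5 times, and 228 times without 1 library, of which 45 did. The cause was not tested beyond what each setting changes. Libraries held 18.9 to 36.4 M counts, and SEs at the high dose were 0.03 to 0.13. A call needed a change well above its SE, so changes near these SEs or moderately above them could be missed.

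With DESeq2, counts became 1 (from 0, Aconiti low dose against vehicle), 5 (from 3, Banhasasim-tang high), 4 (from 2, Citri low) and 2 (from 1, Yijung-tang medium). Without TMM factors they became 30 (from 19, Aconiti high against low), 1 (from 0, Aconiti low), 30 (from 15, Aconiti medium), 20 (from 33, Cimicifugae high), 3 (from 5, Cimicifugae medium), 5 (from 3, Citri high against low), 2 (from 9, Citri high) and 0 (from 1, Yijung-tang medium), and for differences between extracts 19 (from 10, Aconiti and Bupleuri), 11 (from 6, Aconiti and Cimicifugae), 27 (from 12, Aconiti and Citri) and 3 (from 5, both mixtures). The split of Yijung-tang high against low was 1 higher and 5 lower in place of 0 and 7. With no filter they became 2 (from 0, Aconiti low), 2 (from 1, Banhasasim-tang low), 1 (from 5, Cimicifugae medium), 7 (from 2, Citri low), 1 (from 0, Citri medium), 15 (from 7, Yijung-tang high against low), 1 (from 0, Yijung-tang low) and 2 (from 1, Yijung-tang medium). With the stricter filter they became 29 (from 19, Aconiti high against low), 5 (from 3, Banhasasim-tang high), 17 (from 10, Aconiti and Bupleuri) and 19 (from 12, Aconiti and Citri).

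With only the compared groups in the fit, high-dose counts against the vehicle became 14 (from 33, Cimicifugae), 19 (from 9, Citri), 5 (from 3, Banhasasim-tang) and 3 (from 0, Bupleuri). High against low became 30 (from 19, Aconiti), 5 (from 22, Cimicifugae), 0 (from 3, Citri), 2 (from 1, Banhasasim-tang) and 1 (from 0, Bupleuri). Medium doses became 23 (from 15, Aconiti), 11 (from 5, Cimicifugae), 5 (from 1, Yijung-tang), 2 (from 1, Banhasasim-tang) and 1 (from 0, Citri). Low doses became 1 (from 0, Aconiti), 2 (from 1, Banhasasim-tang), 0 (from 2, Citri) and 3 (from 0, Yijung-tang), and differences 17 (from 10, Aconiti and Bupleuri) and 0 (from 16, Citri and Cimicifugae).

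With the replicate number as a block, 29 of 31 counts stayed within 1.5 times, and 2 moved, to 1 (from 0, Aconiti low) and 2 (from 1, Yijung-tang medium). A replicate block within a code set gave 32 (from 19, Aconiti), 14 (from 7, Yijung-tang), 2 (from 1, Banhasasim-tang) and 1 (from 0, Bupleuri) for high against low. Without the 2 libraries that stood apart, a refit made only for comparisons that include either of them, 2 counts moved. They became 0 (from 2, Citri low) and 0 (from 16, Citri and Cimicifugae).

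Leaving out each library in turn gave, at the high dose against the vehicle, 6 to 9 (Citri), 22 to 32 (Cimicifugae), 0 (Bupleuri), 21 to 24 (Aconiti), 10 to 15 (Yijung-tang) and 1 to 4 (Banhasasim-tang, 1 without vehicle replicate 2). High against low gave 2 to 6 (Citri, 6 without low replicate 1), 12 to 26 (Cimicifugae, 12 without high replicate 3), 0 (Bupleuri), 16 to 20 (Aconiti), 5 to 10 (Yijung-tang) and 0 to 1 (Banhasasim-tang, 0 without low replicate 3). Medium doses gave 0 (Citri and Bupleuri), 1 to 4 (Cimicifugae, 1 without medium replicate 2), 8 to 15 (Aconiti, 8 without medium replicate 3) and 0 (Yijung-tang and Banhasasim-tang, whichever library was left out). Low doses gave 0 to 5 (Citri, 0 without low replicate 3 or vehicle replicate 1 or 2), 0 to 1 (Banhasasim-tang, 1 without low replicate 2) and 0 (the other 4). Differences gave 3 to 20 (Citri and Cimicifugae, 3 without Cimicifugae high replicate 3 and 4 without Citri low replicate 3), 3 to 7 (both mixtures), 8 to 13 (Aconiti and Bupleuri), 11 to 21 (Aconiti and Citri, 21 without Citri low replicate 1), 5 to 7 (Aconiti and Cimicifugae), 7 to 13 (Aconiti and Yijung-tang, 7 without Aconiti high replicate 2) and 14 to 17 (Aconiti and Banhasasim-tang).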
